A study of Mus musculus with 15 samples.

Results

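Nuclear receptors are transcription factors that many hormones, vitamins, fatty acids, bile acids and oxysterols act through, and their RNA was followed through the development of the mouse stomach. The members were the 44 genes of the family whose symbols were on a fixed list, of 44788 gene symbols in the files. Of these, 36 reached 1 FPKM (fragments scaled for transcript length and for library size) in at least 1 library and were counted as expressed, and 8 did not. Over all symbols, 16902 reached that limit.

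RNA-Seq was carried out on whole stomachs of C57BL/6 mice at 15 timepoints, with 1 library per timepoint. They covered gestation at daily steps from embryonic day E12.5 to E18.5, postnatal days 1, 3 and 5 (D1, D3, D5) and postnatal weeks 1, 2, 3, 6 and 8 (W1, W2, W3, W6, W8). No treatment or mutation was involved. According to the study, stomachs up to W2 were taken without regard to sex and the later ones from males. The study divided the transcriptomes into phases, Ph1 from E12.5 to E17.5 (6 libraries), Ph2 from E18.5 to W2 (6 libraries) and Ph3 from W3 to W8 (3 libraries). These phases were drawn from the same transcriptomes and timepoints served as replicates, so a p-value here sets the distance between phases against the spread among timepoints, which includes change over time and holds no measure of how animals of 1 age differ. Some stomachs were pooled at the embryonic ages, according to the study's reporting summary, which does not say whether this held for the RNA.

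Most nuclear receptors bind DNA through a pair of zinc fingers and carry a ligand pocket that, once filled, exchanges corepressors for coactivators. Many, including the receptors for thyroid hormone, retinoic acid, fatty acids, oxysterols, bile acids and vitamin D, bind as heterodimers with a retinoid X receptor, while steroid receptors act mostly as homodimers and others, the orphan receptors, have no established ligand or bind as monomers. In the gut, HNF4A is a regulator of epithelial genes, COUP transcription factors are known from mesenchyme, and the estrogen-related receptors drive genes of mitochondrial respiration, on which the acid-secreting parietal cell depends.

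The libraries carried markers of stomach throughout, and 4 of them stood apart in markers of tissue composition. At D1 the liver genes Alb and Afp reached 461 and 186 FPKM, against at most 65.4 (W3) and 22.3 (D3) in any other library. W3 also held the liver genes Apoa2 and Ahsg at 29.5 and 26.3 FPKM, against 4.87 and 1.59 at W6. Afp was at 0.376 at W3, and W3 was not counted among the 4. The pancreatic acinar genes Ctrb1 and Prss2 stood at 84.5 and 14.4 FPKM at D3, and Ctrb1 at 39.3 at E15.5. W8 almost lacked the squamous epithelium of the forestomach: the sum over its 10 markers was 27.4 FPKM, while the other Ph3 libraries reached up to 5020. Marker levels also changed from Ph1 to Ph3. The sum over 17 markers of glandular epithelium, all of them expressed, was 785 to 5490 FPKM in Ph1. It was 9269 to 78993 in Ph2 and 225340 to 324098 in Ph3. Secreted products weigh most in this sum, with Pgc at 122459 and Tff1 at 112832 FPKM at W6. Epcam, on the same list, went from 85.5 FPKM at E12.5 to 75.5 at W6, and Cdh1 from 25.2 to 132. The sum over 8 mesenchymal markers was 2429 to 3903 FPKM in Ph1, 1821 to 4489 in Ph2 and 354 to 1654 in Ph3. In whole stomach, fewer cells of a type and less RNA per cell cannot be told apart, and the part of tissue composition in the differences given here was not tested.

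Of the 36 expressed members, 20 were at 1 FPKM or more in all 15 libraries. As deposited, the highest value of a member fell in Ph1 in 15 cases, in Ph2 in 10 and in Ph3 in 11. These numbers depend on the scaling: after median-ratio scaling, described below, the highest values of Rara, Rxra and Nr2f6 moved from Ph1 to W6. The matching shares over all genes were not computed. The highest member overall was Nr2f6 (COUP-TF-gamma, an orphan receptor) at 78.7 FPKM at E13.5. At E12.5 it led with 70.4 FPKM, followed by Nr2f1 at 69.3 and Nr2f2 at 63.2. At W8 the leading members were Esrra (estrogen-related receptor alpha) at 65.7 FPKM, Nr2f6 at 55.2 and Esrrg at 38.2. W8 is 1 of the libraries that stood apart, and at W3 and W6 the 3 leading members were Esrra, Nr2f6 and Pparg. Nr2f6 was thus among the leading members at both ends, as deposited. The summed level of the 44 members lay between 457 FPKM at W6 and 565 at W2 as deposited. After median-ratio scaling, which sets the median gene equal between libraries, it ran from 403 at E15.5 to 802 at W6, with the Ph3 libraries highest.

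**Figure D1:**
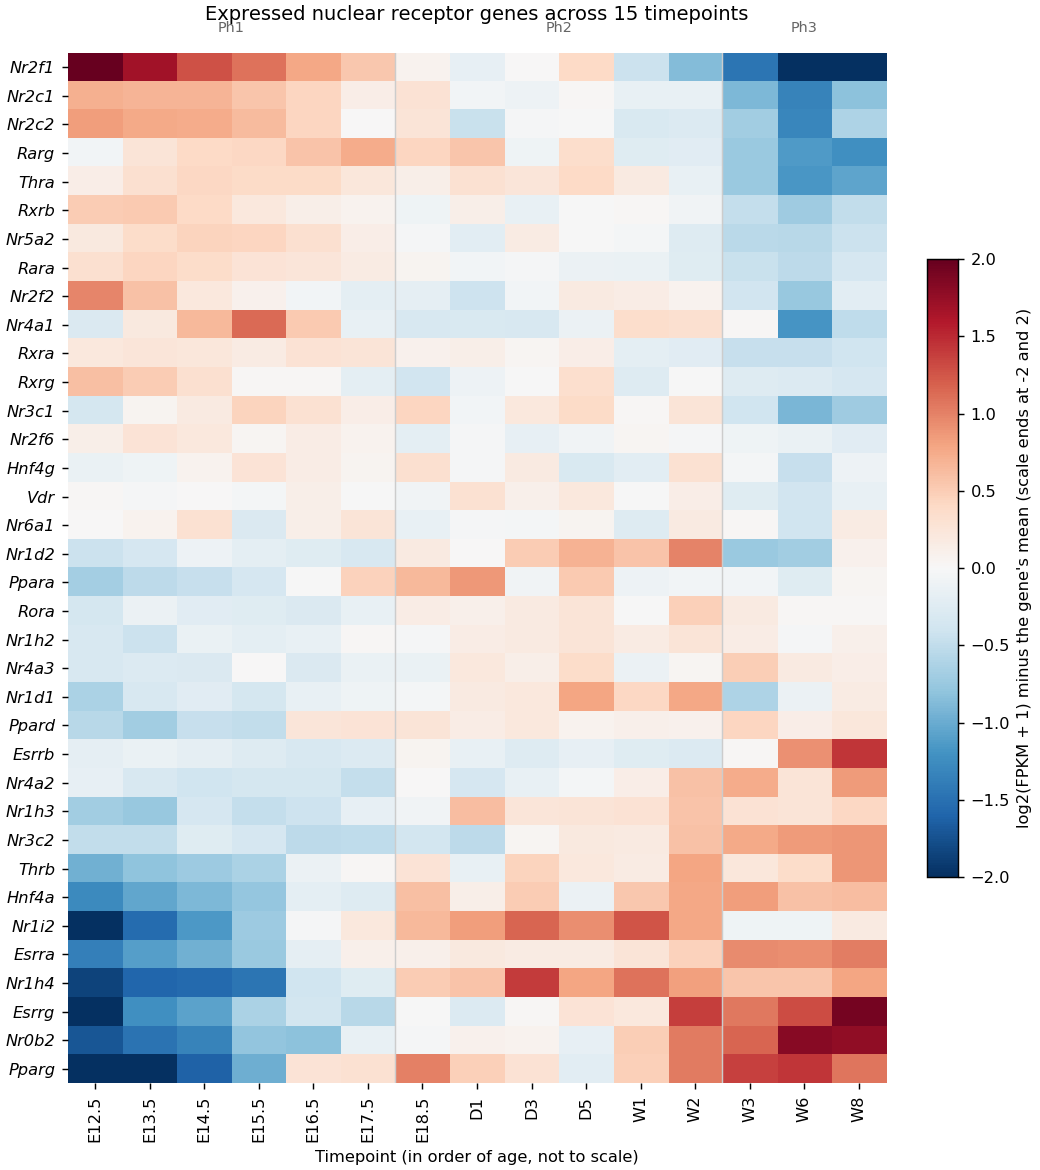
Heat map of the 36 expressed members (rows) in the 15 libraries (columns, in order of age). Colour gives log2(FPKM + 1) minus the gene's mean over the libraries, with phases marked above; Nr2f1 is at the top, with its highest value at E12.5, and Pparg, Nr0b2 and Esrrg are at the bottom, with their highest values in Ph3.

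The 10 highest genes of each library took between 11.2% of its summed FPKM at E14.5 and 53.2% at W6. The counts of members called across or between phases are therefore given with FPKM as deposited and after median-ratio scaling. With deposited FPKM the median log2 fold change of all tested genes was -0.22 between Ph1 and Ph2 and -0.43 between Ph2 and Ph3; after scaling it was 0.00 and -0.02. The members' own medians were 0.20 and -0.23 as deposited and 0.34 and 0.21 after scaling.

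Across the phases, 29 of the 36 tested members differed with deposited FPKM (limma moderated F test on log2(FPKM + 1), Benjamini-Hochberg adjusted p below 0.01), or 80.6% against 70.8% of all genes tested. After scaling, 24 differed (66.7%, against 60.7% of all genes). With a spline over the order of age in place of the phases, 28 members differed as deposited, where 77.6% of all genes did. Against Ph1, Ph2 had 13 higher members (36.1%, against 13.2% of all genes) and 6 lower ones (16.7%, against 35.1%). After scaling, the counts were 16 (44.4%, against 20.0%) and 1 (2.78%, against 18.7%). In Ph3, 3 members were higher than in Ph2 (8.33%, against 3.41%) and 12 lower (33.3%, against 37.4%) as deposited, while 9 were higher (25%, against 15.3%) and 4 lower (11.1%, against 10.2%) after scaling. The shares over all genes are also the background for the counts over lists of related genes.

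The calls that held with both scalings are the ones given a direction here. Between Ph1 and Ph2, 13 members were higher with both (13.1% of all genes were) and 1 was lower (18.7% of all genes were). Between Ph2 and Ph3, 3 members were higher with both (3.41% of all genes were) and 4 were lower (10.1% of all genes were). These calls fell on 19 members. When the 4 libraries that stood apart were left out together, all of these differences kept their direction, but only 7 of the 13, 1 of the 1, 0 of the 3 and 2 of the 4 were still called, with 4 libraries fewer in the test.

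**Figure D2:**
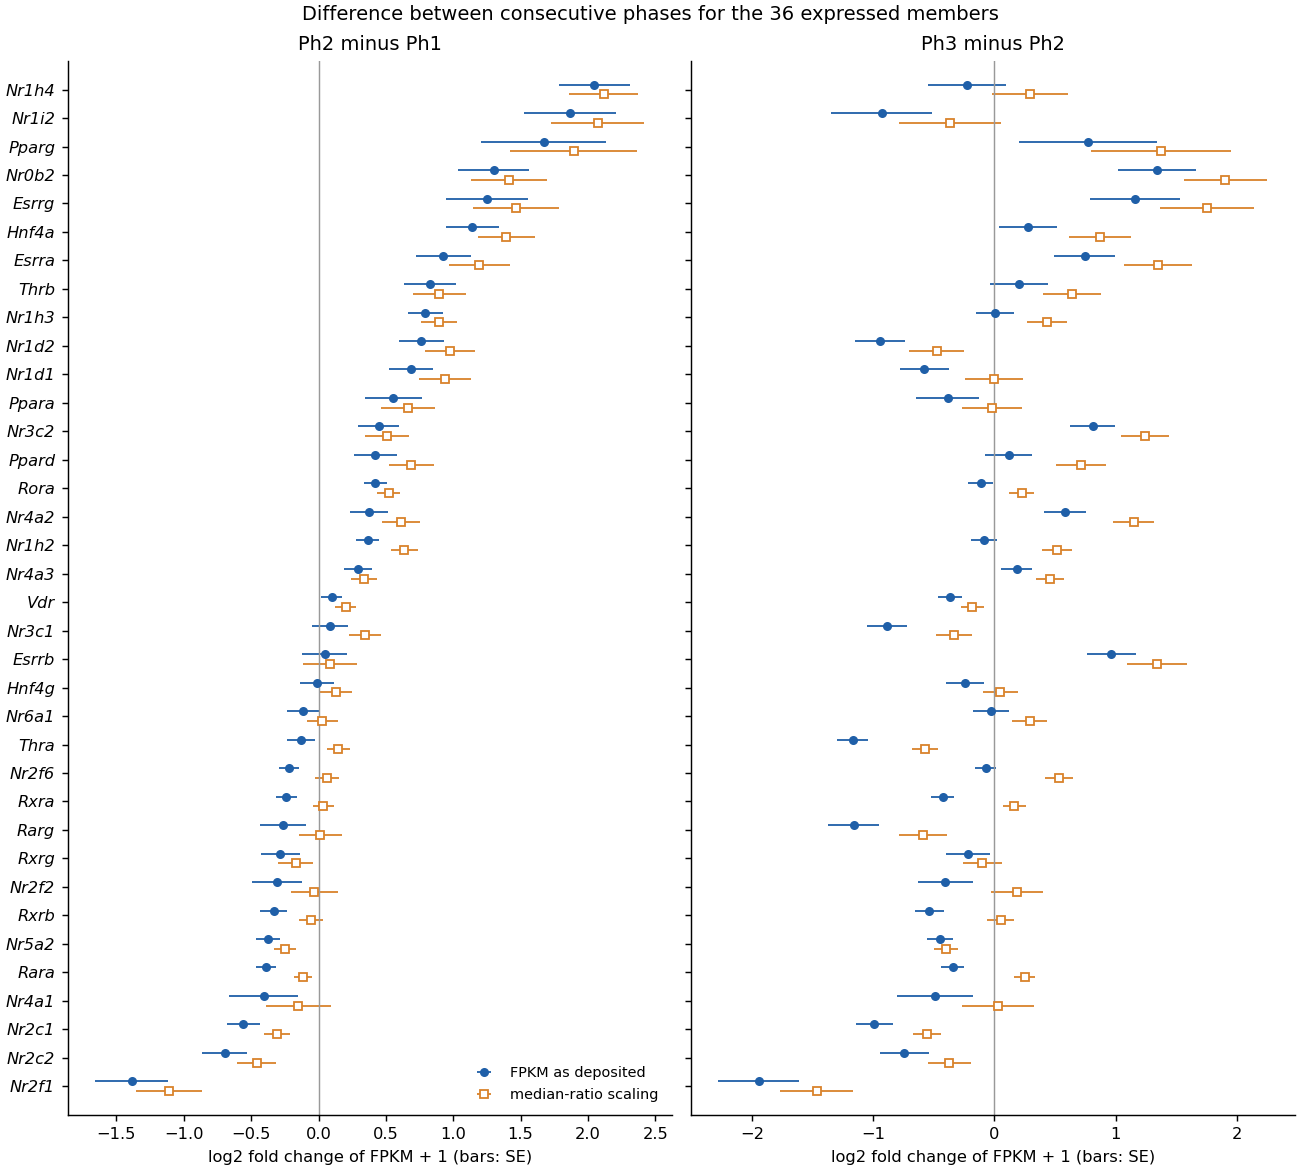
Log2 fold change of FPKM + 1 between consecutive phases for the 36 tested members (left, Ph2 minus Ph1; right, Ph3 minus Ph2), with bars for the SE. Filled circles are deposited FPKM and open squares median-ratio scaling, which moves nearly every member to the right; among filled circles, Nr1h4 has the highest value on the left, at 2.05, and Nr2f1 the lowest on the right, at -1.94.

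Among the thyroid hormone receptors, Thra was the major form and fell in Ph3, while Thrb rose in Ph2. Thra had a lowest, median and highest value of 55.3, 64.5 and 67.2 FPKM in Ph1 and 45.3, 58.1 and 66.3 in Ph2, and was at 29.6, 21.8 and 23.7 FPKM at W3, W6 and W8. Every Ph3 library lay below every earlier one, and the log2 fold change from Ph2 to Ph3 was -1.17 ± 0.13 (SE; limma adjusted p = 5.27e-05) as deposited and -0.57 ± 0.11 after scaling. Thrb started at 0.118 FPKM at E12.5, had a median of 0.348 in Ph1 and reached 1.22 at E17.5. In Ph2 it ranged from 0.967 to 2.74 FPKM with a median of 1.56, overlapping with Ph1 only at E16.5 and E17.5, and W8 was highest at 3.02. Its log2 fold change from Ph1 to Ph2 was 0.83 ± 0.19 (limma adjusted p = 0.00208). Within a library, where scaling has no effect, the ratio of Thra to Thrb fell from 468 at E12.5 to 7.84 at W8. It was 260 at E13.5 and 12.2 at W6. The first ratios are imprecise, since Thrb rested on as few as 6.52 fragments if the deposited confidence bounds reflect counting error. W8 is 1 of the libraries that stood apart.

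Of 11 expressed genes of thyroid hormone handling and response, Ph2 had 6 at a higher and 1 at a lower level than Ph1, with either scaling. The deiodinase Dio1, which activates thyroid hormone, was at 0 at E12.5 and reached 6.75 FPKM at W8 (higher in both steps with both scalings), and Dio3, which inactivates it, had its highest value, 3.74 FPKM, at E16.5 and was at 0.160 at W8, with no call; both were picked for naming after their values were seen.

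The retinoic acid receptors Rara and Rarg and their partners Rxra and Rxrb were at 9.44 FPKM or more in every library. With deposited FPKM all 4 were called lower in Ph3 than in Ph2, and after scaling none was: the log2 fold change of Rara went from -0.34 to 0.25, of Rarg from -1.16 to -0.59, of Rxra from -0.43 to 0.16 and of Rxrb from -0.54 to 0.05. Rarg is known as the form of squamous epithelium. It was at 22.5 FPKM at E12.5 and at 39.8 at E17.5, and stood at 13.6, 10.2 and 9.44 at W3, W6 and W8. Of the 10 forestomach markers, Krt5 also peaked at E17.5, at 964 FPKM, as did Trp63, Krt13 and Krt4. The others peaked at E16.5 or D1. The sum over the 10 was highest at D1, at 20694 FPKM, against 14426 at E17.5. Krt5 was at 84.6, 27.3 and 1.26 FPKM in the same Ph3 libraries. The part of squamous epithelium in the level of Rarg was not tested. The ratio of Rara to Rarg lay between 0.858 at D1 and 2.61 at W8. Rxrg reached 1.22 FPKM at E12.5 and was below 1 FPKM from E14.5 on. Rxrb was summed over 4 entries, of which 1 lies on chromosome 17 and the others on alternate or unplaced sequences. At E12.5 they were listed at 14.1, 14.1, 7.25 and 7.25 FPKM, so that its level rests on how reads were split among copies. Rxra, at 32.1 FPKM in that library, lay above the entry on chromosome 17 and below the sum of 42.7, so which of the pair was higher depends on the summing.

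Of 15 expressed genes of retinoid handling and response, Ph2 had 4 at a higher level than Ph1 with either scaling, and 4 at a lower level as deposited and 3 after scaling. Of these, and picked after their values were seen, Aldh1a1, which makes retinoic acid, went from 8.24 FPKM at E12.5 to 162 at W3 and 124 at W8, and Crabp1, a retinoic acid binding protein, from 136 at E12.5 to 0.858 at W8.

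**Figure D3:**
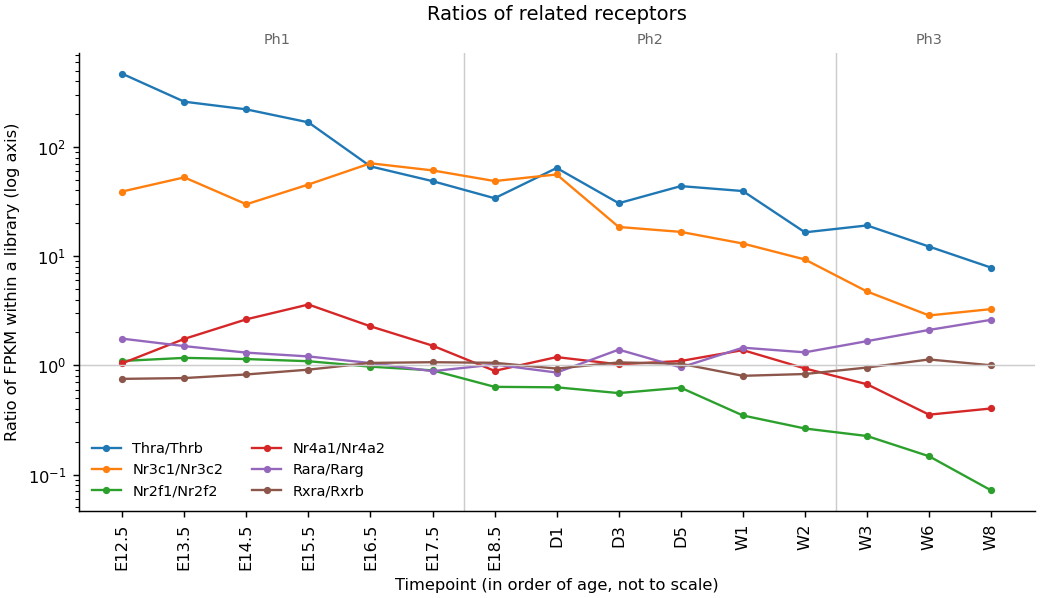
Ratios of FPKM of related receptors within each library (log axis) in order of age; lines join the single libraries of each timepoint. The ratios of Thra to Thrb, Nr3c1 to Nr3c2 and Nr2f1 to Nr2f2 end far below their starting values. Rxrb is the sum of its 4 entries, on which the height of the Rxra to Rxrb line depends.

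Of the fatty acid receptors, Pparg rose in Ph2, Ppard was high throughout and Ppara stayed low. Pparg was at 1.33 FPKM at E12.5, had a median of 6.14 and a highest value of 20.1 in Ph1, and ranged from 13.7 to 34.1 with a median of 22.9 in Ph2. At W3, W6 and W8 it stood at 42.9, 45.3 and 34.8 FPKM. Ph1 and Ph2 overlapped in E16.5 and E17.5, and the log2 fold change between them was 1.67 ± 0.46 (limma adjusted p = 0.00605); 8 of the fits that left out 1 library lost this call, with an adjusted p of up to 0.0163. Pparg is best known from fat cells, and of 5 fat cell markers 3 were expressed, with a sum of 0.0729 to 0.969 FPKM in Ph1, 4.38 to 24.6 in Ph2 and 9.04 to 30.7 in Ph3. Of these markers, Cidec reached 17.9 FPKM at D3 and Cfd 11.2 at W3, while Adipoq, Plin1 and Lep had maxima of 2.40, 0.990 and 0.0464; their part in the level of Pparg was not tested. Ppard, summed over 2 entries of nearly equal level, was at 13 to 26.3 FPKM in Ph1 and 22.6 to 25.9 in Ph2. It was called higher in Ph2 only after scaling (log2 fold change 0.69, against 0.42 as deposited). Within libraries the ratio of summed Ppard to Pparg went from 10.8 at E12.5 to 0.734 at W8. The height of this ratio depends on the summing: the Ppard entry on chromosome 17 alone was listed at 7.23 FPKM at E12.5 and 12.8 at W8.

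Ppara, the receptor behind fatty acid oxidation during fasting and suckling, was at 0.442 FPKM at E12.5, had its highest value of 3.22 at D1 and was between 0.956 and 2.32 afterwards. Its median was 0.760 FPKM in Ph1 and 1.77 in Ph2, with overlapping ranges, and neither phase contrast was called (log2 fold change from Ph1 to Ph2 0.56 ± 0.21, limma adjusted p = 0.0320). At E18.5 Ppara was at 2.63 FPKM and Alb at 14.6. D1 was the library with the highest Alb and Afp, and the part of liver tissue in the level of Ppara was not tested.

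The list of PPAR targets mixes genes of fatty acid oxidation with fat cell genes and is not particular to 1 of the receptors. Of its 29 expressed genes, 22 had a higher level in Ph2 than in Ph1 with either scaling and none a lower one, where 13.2% of all genes were higher as deposited. In Ph3, 1 was higher and 8 were lower than in Ph2 as deposited, and 4 and 5 after scaling.

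The oxysterol receptors Nr1h2 and Nr1h3, the bile acid receptor Nr1h4 and the xenobiotic receptor Nr1i2 rose in Ph2. Nr1h4 (FXR, the bile acid receptor) was between 0.0553 and 0.386 FPKM up to E15.5 and at 2.23 at E17.5. In Ph2 its lowest, median and highest values were 4.4, 5.67 and 9.0 FPKM, all above Ph1, and in Ph3 it was at 4.61, 4.57 and 5.61. The log2 fold change from Ph1 to Ph2 was 2.05 ± 0.26 (limma adjusted p = 7.25e-05). Its highest value came at D3, the library with pancreatic markers; without the 4 libraries that stood apart the fold change was 1.93. Nr1i2 (PXR, which senses drugs and steroids) went from 0.891 FPKM at E12.5 through a Ph1 median of 4.23 to 14.4 to 22.5 in Ph2, with W1 highest, and back to 8.26, 8.34 and 10.2 in Ph3. Ph1 and Ph2 did not overlap, with a log2 fold change of 1.87 ± 0.34 (limma adjusted p = 0.000416). The later decline was not called (-0.93 as deposited, -0.37 after scaling).

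The oxysterol receptor Nr1h3 (LXR-alpha) rose from 0.402 to 1.11 FPKM in Ph1 to 1.25 to 2.62 in Ph2, without overlap (log2 fold change 0.79 ± 0.13, limma adjusted p = 0.000185), and was at 1.82 to 2.17 in Ph3. Nr1h2 (LXR-beta), its widely expressed relative, was far higher, at 24.7 to 34.4 FPKM in Ph1 and 33.3 to 40.5 in Ph2, with a log2 fold change of 0.36 ± 0.09. Between Ph2 and Ph3 the sign for Nr1h2 depended on the scaling (-0.08 as deposited, 0.52 after scaling). Vdr, the vitamin D receptor, exceeded 1 FPKM only at D1, at 1.01, and of 4 vitamin D genes expressed, 2 were at a higher level in Ph2 than in Ph1. Nr1i3 (CAR) was not expressed and had its highest value, 0.321 FPKM, in the same library. Of 12 expressed target genes of the bile acid and xenobiotic receptors, 6 had a higher level in Ph2 than in Ph1 and none a lower one, with either scaling. Of 11 oxysterol receptor targets, 4 were higher and 1 lower. Nr1h3 itself is on that list and is 1 of the 4.

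Hnf4a and the small corepressor Nr0b2 (SHP, which lacks a DNA-binding domain and is a known target of FXR) also rose. Hnf4a was between 6.47 and 14.8 FPKM in Ph1, with a median of 9.07, and between 15.6 and 30.0 in Ph2, with a median of 24.8; the phases did not overlap. It was at 31.0, 26.1 and 26.5 FPKM in Ph3. The log2 fold change from Ph1 to Ph2 was 1.14 ± 0.19 (limma adjusted p = 0.000265). Its ratio to the epithelial gene Cdh1 was 0.257 at E12.5, 0.122 to 0.131 from E15.5 to E17.5, 0.157 to 0.228 in Ph2 and 0.178 to 0.229 in Ph3. The ratio of Hnf4a to Krt8, another epithelial gene, was 0.0428 at E12.5 and 0.0159 to 0.0224 from E15.5 to E17.5. It was 0.0207 to 0.0264 in Ph2 and 0.0128 to 0.0180 in Ph3, below every Ph2 value. The course against epithelium thus depended on the gene chosen. Nr0b2 increased in both steps, from a Ph1 range of 0.277 to 2.78 FPKM to 2.74 to 7.55 in Ph2 and 8.37, 13.8 and 13.3 at W3, W6 and W8. The log2 fold changes were 1.3 ± 0.26 (limma adjusted p = 0.000789) and 1.34 ± 0.32 (limma adjusted p = 0.00299). E17.5 reached just above D5, the lowest Ph2 library, and the call for Ph3 was lost without W6 (adjusted p = 0.022) or W8 (adjusted p = 0.0159) in limma. Its ratio to Hnf4a went from 0.0429 at E12.5 to 0.501 at W8. Hnf4g stayed between 0.503 and 1.57 FPKM.

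The estrogen-related receptors, orphan receptors of energy metabolism, each had their highest single value in Ph3, and as deposited Esrra was the highest member in each Ph3 library. Esrra was at 11.7, 17.2 and 34.3 FPKM (lowest, median, highest) in Ph1, at 33.9, 36 and 44.1 in Ph2 and at 61.7, 61.1 and 65.7 in Ph3. Ph1 and Ph2 met only at E17.5, and every Ph3 value was above every earlier one. The log2 fold change from Ph1 to Ph2 was 0.93 ± 0.20 (limma adjusted p = 0.00139). The further step to Ph3 was 0.74 ± 0.25 as deposited, not called (limma adjusted p = 0.0195), and 1.35 ± 0.28 after scaling, called (limma adjusted p = 0.00178).

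Esrrg had 1.53, 4.81 and 7.03 FPKM in Ph1 and 7.55, 10.3 and 26.0 in Ph2, without overlap, and 20.4, 24.6 and 38.2 in Ph3. Its fold change from Ph1 to Ph2 was 1.25 ± 0.30 (log2; limma adjusted p = 0.0027). W2 stood well above the other Ph2 libraries and also above W3 and W6, so that only W8 exceeded it. The log2 fold change from Ph2 to Ph3 was 1.16 ± 0.37 as deposited, not called (limma adjusted p = 0.0159). After scaling it was 1.75 ± 0.39, called (limma adjusted p = 0.00285). Esrrb did not exceed 0.432 FPKM up to W3, and was at 1.6 at W6 and 2.73 at W8, the only libraries in which it reached 1 FPKM. The log2 fold change from Ph2 to Ph3 was 0.97 ± 0.21 (limma adjusted p = 0.00145), 0.64 without W8 and 0.90 without W6, where the call was lost (limma adjusted p = 0.0118). Atp4a, a subunit of the proton pump of parietal cells, was at 4.34 FPKM at E12.5 and 3289 at W8, and the ratio of Esrra to Atp4a went from 2.70 at E12.5 to 0.0200 at W8. The coactivator genes of these receptors, Ppargc1a and Ppargc1b, were at 0.645 and 1.11 FPKM at E12.5 and at 3.49 and 6.20 at W8; they were picked for naming after their values were seen.

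**Figure D4:**
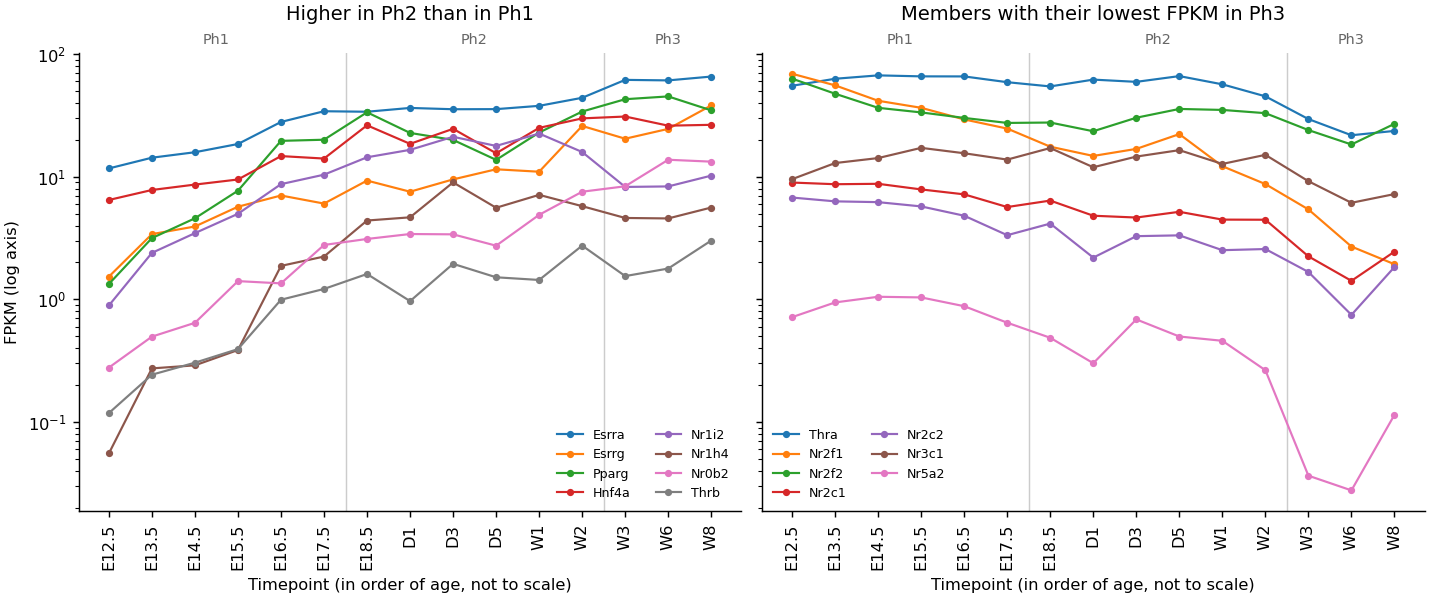
FPKM (log axis) of 8 members called higher in Ph2 than in Ph1 with both scalings (left) and of 7 members with their lowest FPKM in Ph3 (right), by timepoint; each point is 1 library. Nr1i2 goes down again after W1, and Nr2f1 runs from 69.3 FPKM at E12.5 to 1.93 at W8.

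Of the corticoid receptors, Nr3c2 rose in Ph3, and a fall of Nr3c1 was called only as deposited. The mineralocorticoid receptor Nr3c2, which drives sodium transport, was at 0.220, 0.245 and 0.476 FPKM (lowest, median, highest) in Ph1 and at 0.214, 0.883 and 1.62 in Ph2. In Ph3 it was at 1.94, 2.14 and 2.21 FPKM, above all earlier libraries, at a log2 fold change of 0.81 ± 0.19 (limma adjusted p = 0.00239). Without W6 or W8 the call was lost (limma adjusted p = 0.0141 and 0.0112). The glucocorticoid receptor Nr3c1 was between 9.56 and 17.2 FPKM through Ph1 and Ph2 and at 9.20, 6.13 and 7.23 in Ph3. That fall was called as deposited (log2 fold change -0.89 ± 0.17, limma adjusted p = 0.000675) and not after scaling (-0.33 ± 0.15). The ratio of Nr3c1 to Nr3c2 went from 39.1 at E12.5 to 3.27 at W8. Of 17 genes of corticoid handling and response, all expressed, 5 had a higher and 4 a lower level in Ph2 as deposited, and 7 and 3 after scaling. Among them, and picked after its values were seen, the epithelial sodium channel subunit Scnn1a went from 1.32 FPKM at E12.5 to 28.3 at W8.

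The COUP-TF genes parted ways. Nr2f1 fell in both steps, from 24.7, 39.1 and 69.3 FPKM (lowest, median, highest) in Ph1 to 8.72, 15.8 and 22.3 in Ph2 and 5.42, 2.70 and 1.93 at W3, W6 and W8. No phase overlapped with the next, and the log2 fold changes were -1.39 ± 0.27 (limma adjusted p = 0.000658) and -1.94 ± 0.33 (limma adjusted p = 0.000399). It was the 1 member called lower in Ph2 than in Ph1 with both scalings. Nr2f2 went from 63.2 FPKM at E12.5 to 27.5 at E17.5, and then stayed between 18.3 and 35.8 without a call in either contrast. The ratio of Nr2f1 to Nr2f2 was 1.10 at E12.5, 0.635 at E18.5 and 0.0715 at W8. The mesenchymal gene Barx1 was at 472 FPKM at E12.5 and at 37.6 at W8. The ratio of Nr2f1 to Barx1 was 0.147 at E12.5 and 0.0515 at W8. Barx1 did not follow the sum of the mesenchymal markers. Summed over all 8, they stood at 2429 FPKM at E12.5, 3903 at E16.5 and 354 at W8. Collagens weigh most in this sum, with Col1a1 at 1213 and Col3a1 at 975 FPKM at E16.5. From E12.5 to E16.5 Pdgfra fell from 74.4 to 19.7 FPKM and Vim from 440 to 391. Col1a1, Col1a2, Col3a1, Dcn and Lum rose over the same days. At E16.5 Barx1 was down to 189 FPKM and Nr2f1 to 29.4. The course against mesenchyme thus depends on the marker chosen, and the part of mesenchyme in the level of Nr2f1 was not tested. Nr2f6 lay between 55.2 and 78.7 FPKM as deposited, without a call. After scaling it ran from 51.4 to 104 and the step up to Ph3 was called (0.53 on the log2 scale, limma adjusted p = 0.00205). The testicular receptors Nr2c1 and Nr2c2 had their highest levels at E12.5. Nr2c1 had 5.66, 8.29 and 8.97 FPKM in Ph1, 4.46, 4.73 and 6.39 in Ph2 and 2.24, 1.42 and 2.45 in Ph3. Its log2 fold change was -0.99 ± 0.15 between Ph2 and Ph3 (limma adjusted p = 0.000215), called with both scalings. Nr2c2 was called lower in both contrasts as deposited and in neither after scaling.

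The clock-linked repressors Nr1d1 and Nr1d2 (REV-ERB-alpha and REV-ERB-beta) and the activator Rora, which bind the same sites, rose in Ph2. Nr1d1 was between 7.51 and 11.4 FPKM in Ph1, with a median of 9.92, and between 11.9 and 21.9 in Ph2, with a median of 15.4, peaking at D5 and W2. It was at 7.65, 11.2 and 13.8 FPKM at W3, W6 and W8. Nr1d2 had 2.79 to 3.77 FPKM in Ph1, 4.17 to 9.19 in Ph2 and 2.06, 2.16 and 4.45 in Ph3. Neither gene's Ph2 overlapped with Ph1, and the log2 fold changes were 0.69 ± 0.17 (limma adjusted p = 0.00251) for Nr1d1 and 0.76 ± 0.17 (limma adjusted p = 0.00148) for Nr1d2. Rora was low, with a median of 0.638 FPKM in Ph1 and 1.15 in Ph2 and no overlap (log2 fold change 0.42 ± 0.09, limma adjusted p = 0.000885). The lower values in Ph3 were called only for Nr1d2 and only as deposited, and that call was lost without W3 or W6.

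Among 14 expressed clock genes, 1 was higher in Ph2 than in Ph1 as deposited, where 13.2% of all genes were. After scaling 4 were, where 20.0% of all genes were, and none was lower with either scaling. In Ph3, 6 of the 14 were lower than in Ph2 as deposited, where 37.4% of all genes were, and 4 after scaling, where 10.2% were. Dbp and Tef, output genes of the clock named here after their values were seen, stood at 13.7 and 19.4 FPKM at W2 and at 3.31 and 4.81 at W3, while Arntl, the activator that REV-ERB represses, was at 6.37 and 8.59. The ratio of Nr1d1 to Arntl was highest at D5, at 3.65, and lowest at W3, at 0.890. The hour at which stomachs were taken is not given in the sources used here, so that age and clock time cannot be told apart for these genes.

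The promoters of the NR4A genes and of the REV-ERB genes are shown because cAMP response elements are known from the first and receptor sites from the second. All sequences are RefSeq windows of GRCm38.p6, from 250 bases before to 50 after the annotated start, which need not be the start used in stomach; 40 of the 44 members had such a window. In the NR4A windows, capitals mark the cAMP response half-site TGACG on either strand. Each window held 4 matches, and 76 of 32851 promoters held 4 or more (0.231%), whereas 20.8% of promoters held at least 1. Nr4a1 lies at chr15:101266596-101266895 (plus strand), Nr4a2 at chr2:57123954-57124253 (minus strand) and Nr4a3 at chr4:48045055-48045354 (plus strand).

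Nr4a1: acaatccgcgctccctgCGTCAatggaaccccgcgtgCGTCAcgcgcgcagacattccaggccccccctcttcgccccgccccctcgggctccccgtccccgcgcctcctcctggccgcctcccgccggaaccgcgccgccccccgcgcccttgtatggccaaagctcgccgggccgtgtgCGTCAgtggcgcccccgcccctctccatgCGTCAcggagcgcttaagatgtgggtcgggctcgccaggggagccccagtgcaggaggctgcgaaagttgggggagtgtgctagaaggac

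Nr4a2: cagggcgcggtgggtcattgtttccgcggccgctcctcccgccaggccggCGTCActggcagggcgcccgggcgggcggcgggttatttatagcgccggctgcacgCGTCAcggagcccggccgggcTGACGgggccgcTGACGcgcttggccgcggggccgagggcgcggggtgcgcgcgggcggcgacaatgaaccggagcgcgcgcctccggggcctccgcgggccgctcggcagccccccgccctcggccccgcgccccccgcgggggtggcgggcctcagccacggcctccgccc

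Nr4a3: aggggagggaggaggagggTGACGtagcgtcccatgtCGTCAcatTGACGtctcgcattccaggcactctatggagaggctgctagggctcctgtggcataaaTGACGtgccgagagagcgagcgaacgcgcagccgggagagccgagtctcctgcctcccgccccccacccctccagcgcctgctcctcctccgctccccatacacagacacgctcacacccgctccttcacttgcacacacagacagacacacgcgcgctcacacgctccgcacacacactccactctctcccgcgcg

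The NR4A receptors are ligand-independent immediate early genes, induced within minutes by cAMP, stress or handling. Nr4a1 had high values in separate stretches, and neither contrast was called: it went from 6.39 FPKM at E12.5 to 19 at E15.5, back to 7.17 at E17.5, up to 10.6 at W1 and down to 2.99 at W6. Of the immediate early genes, Fos and Egr1 had high values in the same stretches. They were at 49.9 and 39.3 FPKM at E15.5 and at 60.9 and 46.2 at W1, against 8.35 and 5.90 at E17.5. The sum over the 19 listed genes took another course. It was 620 FPKM at E15.5, 790 at E16.5, 564 at E17.5, 700 at D1 and 804 at W1, with Nr4a1 at 6.33 at D1. How the tissue was handled at each timepoint was not tested. Nr4a2 did not follow the course of Nr4a1. It was at 4.74 to 6.13 FPKM in Ph1, 5.32 to 11 in Ph2 and 12.3, 8.46 and 13.3 in Ph3, higher in both steps after scaling only (log2 fold changes 0.61 and 1.15, against 0.37 and 0.58 as deposited). The ratio of Nr4a1 to Nr4a2 was 3.61 at E15.5 and 0.403 at W8. Nr4a3 just reached the limit of 1 FPKM, at W3. Of 17 expressed immediate early genes, Ph2 had 4 at a higher level than Ph1 as deposited and 6 after scaling, against 13.2% and 20.0% of all genes, and none at a lower one.

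In the REV-ERB windows, capitals mark the receptor half-site AGGTCA, which 16.3% of promoters held; Nr1d2 had 1 match and Nr1d1 none. The E-box CACGTG, found in 7.15% of promoters, was in neither. Nr1d1 lies at chr11:98775328-98775627 (minus strand) and Nr1d2 at chr14:18239057-18239356 (minus strand).

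Nr1d1: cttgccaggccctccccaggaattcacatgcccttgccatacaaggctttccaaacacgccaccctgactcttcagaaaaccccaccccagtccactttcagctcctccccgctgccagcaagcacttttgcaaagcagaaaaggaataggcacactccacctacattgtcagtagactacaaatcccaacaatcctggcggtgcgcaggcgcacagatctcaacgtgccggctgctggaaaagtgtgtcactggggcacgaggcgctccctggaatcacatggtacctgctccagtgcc

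Nr1d2: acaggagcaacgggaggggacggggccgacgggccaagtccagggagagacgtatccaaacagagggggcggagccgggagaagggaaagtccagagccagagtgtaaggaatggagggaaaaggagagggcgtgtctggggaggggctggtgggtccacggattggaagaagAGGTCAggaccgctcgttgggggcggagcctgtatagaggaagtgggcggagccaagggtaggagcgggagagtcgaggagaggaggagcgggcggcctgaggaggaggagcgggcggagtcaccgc

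**Figure D5:**
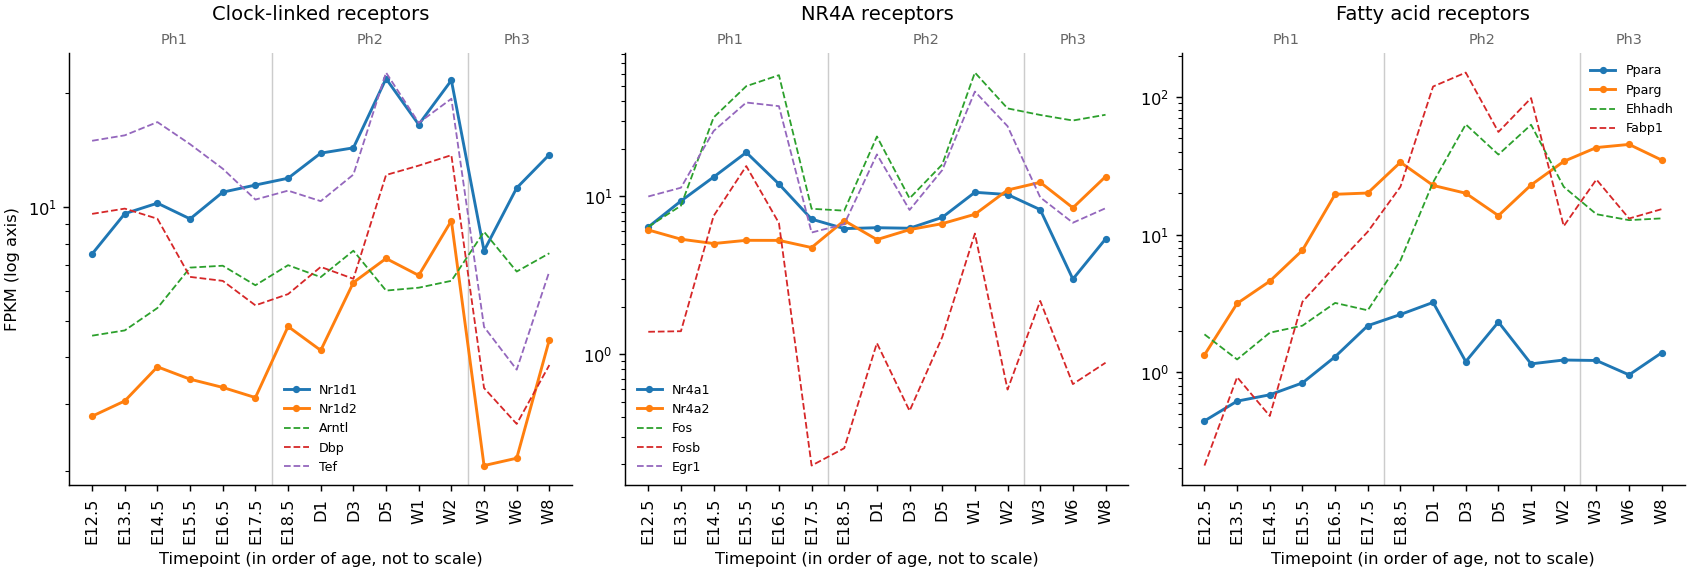
FPKM (log axis) by timepoint of members (solid lines with points, 1 library each) beside related genes (dashed): Nr1d1 and Nr1d2 with Arntl, Dbp and Tef (left), Nr4a1 and Nr4a2 with Fos, Fosb and Egr1 (middle), and Ppara and Pparg with Ehhadh and Fabp1 (right). Nr1d1, Nr1d2, Dbp and Tef are lower at W3 than at W2.

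The remaining orphan receptors were low. Nr5a2 (LRH-1), which is known from pancreas and intestinal crypts, had its highest value, 1.05 FPKM, at E14.5, had a median of 0.912 in Ph1 and 0.472 in Ph2, and was at 0.0364, 0.0276 and 0.114 in Ph3. The step to Ph3 was called with both scalings (log2 fold change -0.45 ± 0.11, limma adjusted p = 0.00322), although at most 81.8 fragments lay behind any of its values if the deposited confidence bounds reflect counting error; without W3 or W6 the call was lost (limma adjusted p = 0.0113 and 0.0188). Nr6a1 (GCNF) stayed between 0.580 and 1.58 FPKM. The 8 members below 1 FPKM everywhere were Rorb, Nr1i3, Nr2e3, the estrogen receptors Esr1 and Esr2, the progesterone receptor Pgr, the steroidogenic factor Nr5a1 and Nr0b1 (DAX1). The highest of these was Esr1 at 0.428 FPKM at W1, and the lowest of the expressed members was Nr4a3. Tff1, an estrogen response gene in other tissues and here a product of gastric pit cells, went from 153 FPKM at E12.5 to 112832 at W6 while Esr1 and Esr2 were below the limit.

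Among 20 coregulators, the proteins that receptors recruit, Ph2 had 12 at a lower and 3 at a higher level than Ph1 as deposited, and Ph3 had 11 at a lower and none at a higher level than Ph2. After scaling, 5 were lower and 5 higher in Ph2, and 2 were higher and none lower in Ph3. For comparison, 35.1% of all genes were lower and 13.2% higher in Ph2, and 37.4% lower in Ph3, as deposited. Hdac3, Carm1 and Tbl1x, of the highest levels in this list, were lower in Ph2 than in Ph1 with both scalings, at log2 fold changes of -0.64, -1.15 and -0.77 as deposited and -0.36, -0.87 and -0.49 after scaling. Kat2b, an acetyltransferase picked after its values were seen, was higher in Ph2 with both (0.65 and 0.88). Of 11 sex steroid targets and synthesis genes, 4 had a higher level in Ph2 than in Ph1 with either scaling, while 2 had a lower one as deposited and none after scaling.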

How the data were processed

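FPKM with confidence bounds had been computed and deposited by the authors for each gene entry in 15 libraries of whole mouse stomach, 1 per timepoint. Their methods name FastQC, HISAT2 and StringTie, the submitters' processing notes list Bowtie 0.12.2, FastQC and the build GRCm38.p2, and the files have the layout of a Cufflinks gene table, so that the sources differ on how the values were made. The methods also name liver as the source of the RNA, whereas GEO's labels name stomach. Read depth per library is not given in the files, so its precision is known only from the confidence bounds, which cover counting error only.

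Entries with the same symbol were summed. Rows were matched between files by gene identifier and position, since the files list them in different orders. Genes reaching 1 FPKM in some library were tested on log2(FPKM + 1), a scale on which fold changes of low genes are understated, with limma 3.58.1 in R 4.3.3: a moderated F test over the 3 phases, and Ph2 against Ph1 and Ph3 against Ph2, all 15 libraries entering the fit, with Benjamini-Hochberg adjustment over all 16902 genes and a threshold of 0.01. The fit was tested on simulated data. Tables and figures were made with Python 3.11.15, pandas 2.3.3 and matplotlib 3.10.9. Members called in the same direction with deposited FPKM and with median-ratio scaling were described in full, and the others by range and counts. The members, pathway lists and markers were chosen with earlier results of these data known. Alternatives covered the pseudocount, the filter on low values, the scaling, the phase borders, the choice of entry, the test and each library left out; leaving out E15.5, D1, D3 and W8 together was added after the data were seen. Protein sequences were not used here. Some genes of the pathway lists are not reported here by name.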

Additional observations from a re-analysis of the deposited data

Results flagged for a closer look

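Within a phase of 6 libraries, 3 of 72 groups of values had 1 library far from the others by Dixon's test; chance flags about 1 in 20 groups. Nr1h2 was at 33.3 FPKM at E18.5, below the 37.8 to 40.5 FPKM of the other Ph2 libraries. Esrrb was at 0.432 FPKM at E18.5, above the 0.144 to 0.243 FPKM of the others. Esrrg was at 26.0 FPKM at W2, while the others started at 7.55 FPKM and the next highest was D5; without W2 its log2 fold change from Ph1 to Ph2 was 1.03 and was still called.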

How the results depend on the processing

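After median-ratio scaling, 1 member was lower in Ph2 than in Ph1, and 9 were higher and 4 lower in Ph3 than in Ph2; with quantile normalization, 8 were higher and 2 lower in Ph3; with FPKM rescaled to an equal sum without the 10 highest genes, 2 were lower in Ph2. With E17.5 placed in Ph2, 6 members were higher in Ph3. Age windows that began at birth and at weaning, in place of Ph2 and Ph3, lost the call of 9 results whose direction was kept. Median-ratio scaling lost 10 such calls and quantile normalization 11. Calls lost with a change of direction come on top: Rara, Rxra and Rxrb in Ph3 after median-ratio scaling, and Vdr in Ph3 with quantile normalization. Without E15.5, D1, D3 and W8 together, 21 calls were lost, and 7 members were higher and 2 lower in Ph2, and 0 higher and 3 lower in Ph3. The direction between Ph2 and Ph3 reversed after median-ratio scaling for Rara (0.25), Nr1h2 (0.52), Rxra (0.16), Rxrb (0.053) and Nr2f6 (0.53), and with quantile normalization for Nr1h2 (0.18), Vdr (0.064) and Nr2f6 (0.12), all as log2 fold changes. Leaving out 1 library in turn gave 25 to 29 members differing across phases, 12 to 15 higher and 5 to 6 lower in Ph2, and 1 to 5 higher and 5 to 12 lower in Ph3; without W6 or W8 only 1 was higher in Ph3, without E12.5 or W2 5 were, and without W6 5 and without W3 7 were lower. The number of expressed members was 35 or 36 when 1 library was left out, 33 after median-ratio scaling and 29 at a limit of 2 FPKM. The pseudocount, the filter, the entry chosen and a trend in the limma fit kept each count within 1.5 times. The cause of these shifts was not tested. No paired analysis was possible because each timepoint has 1 library. Read depth is not given in the files, so what it limits is known only through the confidence bounds.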
